A study of Mus musculus with 9 samples.

Results

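The genes of prostaglandin E2 production, reception and removal were followed in the Foxd2 mutant clone F7 (n = 4 libraries) and in control cells (n = 5 libraries) of the mouse line mK4, which is derived from embryonic kidney mesenchyme. The set holds 10 genes of the 45808 in the deposited raw-count table, found there by symbol. They are the phospholipase gene Pla2g4a, the cyclooxygenase genes Ptgs1 and Ptgs2, the prostaglandin E synthase genes Ptges, Ptges2 and Ptges3, the receptor genes Ptger1, Ptger2 and Ptger4, and the dehydrogenase gene Hpgd. Ptgs2 was chosen by its counts in this same contrast, where it was much higher in F7 than in control, so its difference is described without a test, and the other 9 were added as its pathway. F7 cells carry a homozygous frameshift in Foxd2, a forkhead transcription factor gene, made with CRISPR/Cas. Control cells went through the same procedure with a guide that has no target and are Foxd2 wild type. Both were grown in medium with 10% serum. F7 is 1 clone, so clone and genotype cannot be told apart, and whether replicates are separate cultures is not in the labels. A p-value here therefore sets a difference against library-to-library spread, part of which may be technical.

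Phospholipase A2 releases arachidonic acid from membranes, and a cyclooxygenase turns it into the unstable intermediate that terminal synthases convert to prostaglandin E2 and its relatives. Ptgs1 is the cyclooxygenase that many tissues make all the time, whereas Ptgs2 is the inducible form, known for rapid rises after growth factors, cytokines and stress and for short-lived mRNA. In the kidney Ptgs2 is known from the macula densa and medullary interstitial cells, and mice that lack it have abnormal postnatal kidneys. Prostaglandin E2 acts on the receptors EP1 to EP4 and is inactivated by the dehydrogenase encoded by Hpgd.

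The libraries held 6041556 to 14024859 counts in F7 and 10526591 to 16032175 in control, with F7 replicates 3 and 4 the shallowest. In the raw table those 2 columns are headed mk3 where the others read mk4, whereas their normalized columns and sample titles name mK4. Because of the mk3 headers, fits with each F7 pair alone are given for the tested genes of the set. They are also given for the genes named from the wider lists. Foxd2 RNA, which a frameshift need not lower, was at 18.3 ± 3.78 CPM in F7 (SD, n = 4) and 3.73 ± 0.538 CPM in control (SD, n = 5). CPM are counts scaled to the library total and its TMM factor. Of 11 kidney mesenchyme markers 8 had reads, among them Pax2, Eya1, Sall1, Gdnf and Hoxa11, whereas Wt1, Six2 and Hoxd11 were at 0 in all libraries. The 11 summed to between 394 and 462 CPM in F7 and 548 and 605 CPM in control.

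Ptgs2 stood near 0 in control and was expressed in every F7 library. Ptgs2 (ENSMUSG00000032487.8; mm10 chromosome 1, 150100031 to 150108227, plus strand) had 766, 596, 105 and 145 counts in F7 replicates 1 to 4, against 2, 2, 1, 0 and 1 in control replicates 1 to 5. Scaled for depth, these were 56.0, 51.1, 17.6 and 22.2 CPM in F7 and 0.121, 0.148, 0.083, 0 and 0.0843 CPM in control. The groups did not overlap, and the lowest F7 library lay far above the highest control library. Over the pooled reads, 1612 in F7 and 6 in control, the scaled ratio of F7 to control was 460 (95% exact interval 211 to 1255, counting error only). The fitted log2 fold change was 8.52 (SE 0.64), rank 2 among the 14730 genes kept for testing, after Ptp4a3. By mean CPM Ptgs2 ranked 5832 of those genes in F7 and 14714 in control. The low rank in control follows from the filter, which Ptgs2 passed through its F7 counts alone.

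The F7 libraries fell into a higher and a lower pair for Ptgs2. Replicates 1 and 2 averaged 53.6 CPM and replicates 3 and 4 averaged 19.9 CPM, a ratio of 2.69. Against the same 5 controls the log2 fold change was 9.04 with replicates 1 and 2 as the only F7 libraries and 7.59 with replicates 3 and 4. The SE of these fits, 0.20 and 0.32, were derived from the F statistic. They understate the counting error of the 6 control reads, which both fits share. Both pairs lay above every control library. Whether the header mk3, the lower depth or the cells account for the difference between the pairs was not tested.

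**Figure D1:**
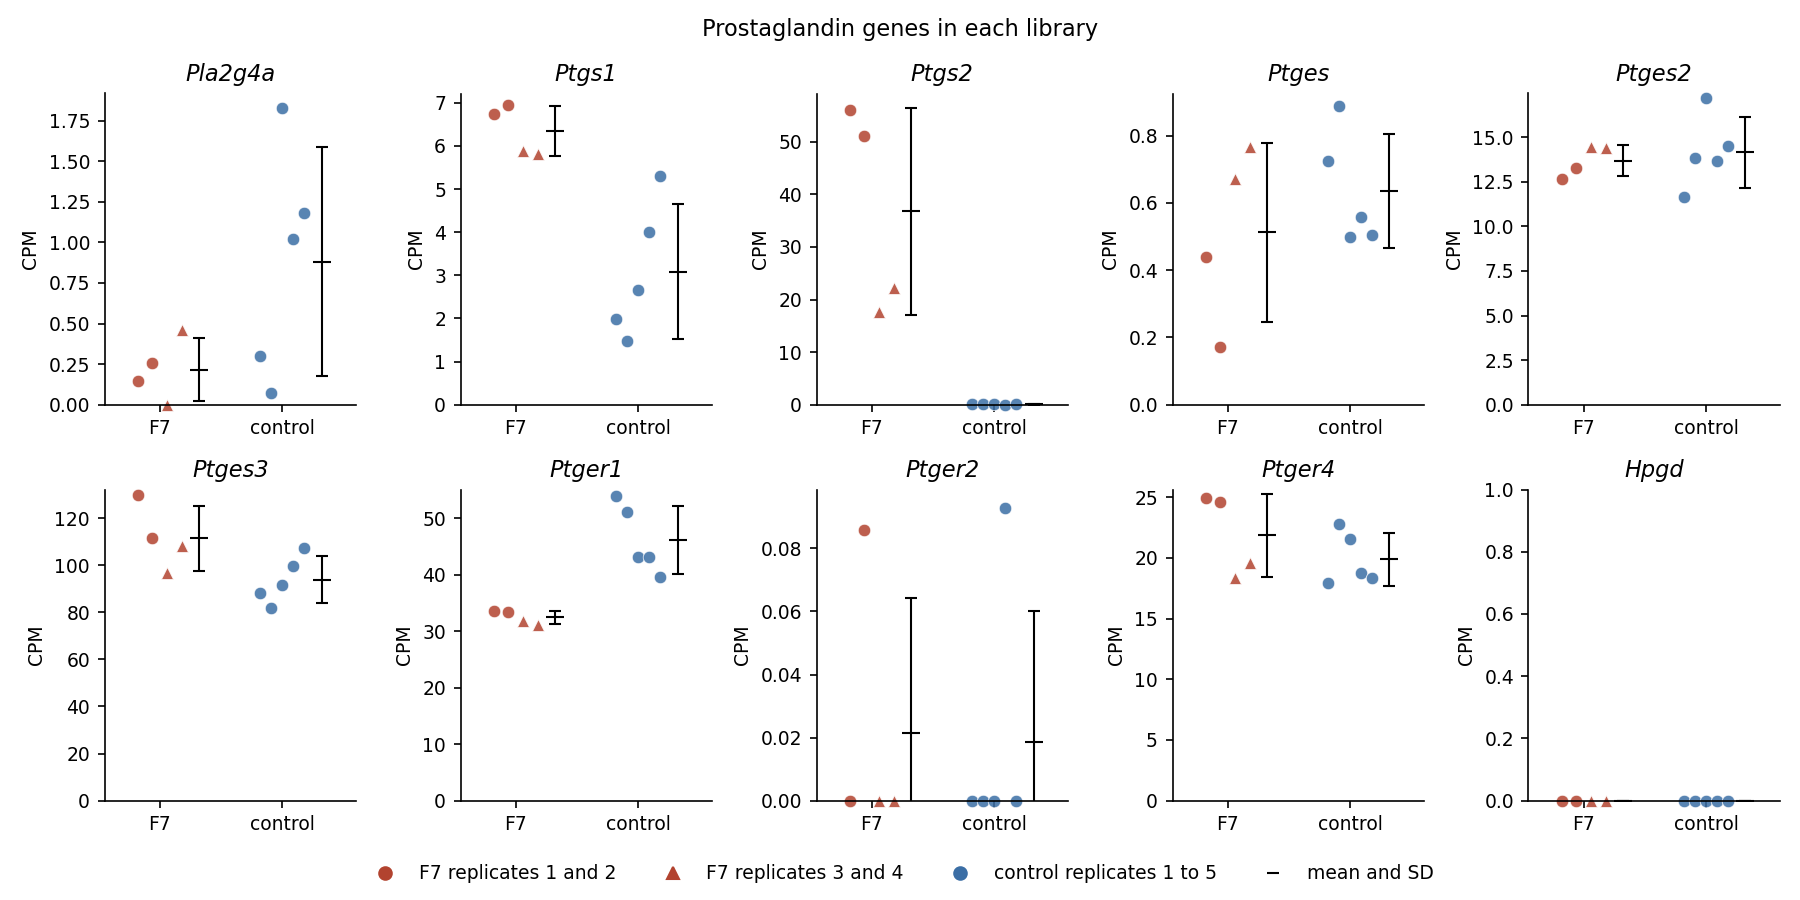
CPM of each of the 10 genes, 1 panel a gene with its own linear axis from 0. Points are libraries (F7 left, with triangles for replicates 3 and 4, control right), and black bars are the mean and SD of 4 F7 and 5 control libraries. Ptgs2, Ptgs1 and Ptger1 are the genes whose groups do not overlap, and Ptgs2 in F7 runs from 17.6 to 56.0 CPM.

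The stretch around the Ptgs2 start is shown with that of Ptgs1, since they are the 2 alternative cyclooxygenase genes and both were higher in F7. The sequences are RefSeq promoter windows of GRCm38.p6, from 250 bases before the annotated start to 30 bases after it, at chr1:150099781-150100060 for Ptgs2 and chr2:36230176-36230455 for Ptgs1, both on the plus strand and written 5′ to 3′. Capitals mark every match, on either strand, to the motifs searched.

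Ptgs2: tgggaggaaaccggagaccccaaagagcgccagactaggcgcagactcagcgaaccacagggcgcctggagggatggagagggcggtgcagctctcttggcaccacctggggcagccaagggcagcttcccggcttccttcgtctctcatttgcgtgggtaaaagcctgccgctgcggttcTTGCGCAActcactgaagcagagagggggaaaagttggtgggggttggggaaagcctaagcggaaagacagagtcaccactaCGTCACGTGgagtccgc

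Ptgs1: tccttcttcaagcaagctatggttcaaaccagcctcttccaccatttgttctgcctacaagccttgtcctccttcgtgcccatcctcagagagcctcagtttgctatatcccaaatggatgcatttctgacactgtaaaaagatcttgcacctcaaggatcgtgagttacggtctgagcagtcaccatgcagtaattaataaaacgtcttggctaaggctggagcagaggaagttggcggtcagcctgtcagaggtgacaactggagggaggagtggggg

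In Ptgs2 the capitals are TTGCGCAA, the palindrome bound by C/EBP factors, at -69 to -62 from the start, and a run made of overlapping matches. At 14 to 18 the short cyclic AMP response motif TGACG reads on the minus strand, and the E-box motif CACGTG follows at 17 to 22. The other motifs searched were the TATA box TATAAA, the full cyclic AMP response element TGACGTCA, the forkhead motif TGTTTAC, the NF-kB forms GGGACTTTC and GGGATTCCC, and the CCAAT box. Windows of 300 bases were available for 9 of the 10 genes, as 10 windows, and for 32851 starts in all. TTGCGCAA was found in Ptgs2 and in no other of the 9 genes, and in 0.183% of all windows. TGACG was found in Ptgs2 and Ptges3 and in 20.8% of all windows, and CACGTG in Ptgs2 and Ptges2 and in 7.15% of all windows. CCAAT occurred in Pla2g4a, Ptger2 and Ptger4 (37.4% of all windows) and TATAAA in Pla2g4a and Hpgd (13.6% of all windows). None of the 9 genes had TGACGTCA (1.79%), TGTTTAC (3.65%), GGGACTTTC (0.353%) or GGGATTCCC (0.353%) in its window. These matches describe letters in a window and say nothing of whether a factor binds.

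Of the 9 other genes, 5 had enough reads to be tested, and 2 rose, 1 fell and 2 did not pass. Over all 14730 tested genes, 35.3% were called in either direction, 17.4% higher and 17.9% lower, so calls are common in this contrast and a count over 5 genes reads little against that background. The number that rose was 1 without any of F7 replicates 1, 2 and 4 or control replicates 1, 2, 3 and 4, and 0 when replicates 3 and 4 stood alone for F7, while Ptger1 fell in each of these fits. Over the 5 genes the median log2 fold change was 0.16, against -0.01 over all tested genes. Ptgs1 and Ptger1 were the 2 of the 5 without overlap between groups, which held for 27.6% of all tested genes.

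Pla2g4a, the cytosolic phospholipase A2 that supplies arachidonate, was barely detected. It had 2, 3, 0 and 3 counts in F7, against 5, 1, 22, 11 and 14 in control, 8 reads in all against 53. The libraries overlapped, because control replicates 1 and 2 lay among the F7 libraries. Mean levels were 0.216 ± 0.193 CPM in F7 (SD, n = 4) and 0.881 ± 0.705 CPM in control (SD, n = 5). For this difference an exact two-sided permutation test over 126 splits gave p = 0.1429. A share of 1 split is 0.00794, and the smallest possible two-sided p is larger because both tails are counted. With no filter on low counts, edgeR gave a log2 fold change of -1.95 (SE 0.83) and an adjusted p of 0.128. The gene lies beside Ptgs2 (chromosome 1, 149829618 to 149961290, minus strand), with its start 138.7 kb from that of Ptgs2.

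Ptgs1, the constitutive cyclooxygenase, rose in F7 but by far less than the difference seen for Ptgs2. Ptgs1 (ENSMUSG00000047250.13; chromosome 2, 36230426 to 36252272, plus strand) was at 6.73, 6.94, 5.88 and 5.81 CPM in F7, against 1.99, 1.48, 2.66, 3.99 and 5.31 CPM in control. The 4 F7 libraries lay close together and above all controls, whereas the controls were spread widely and the highest of them, replicate 5, came near the lowest F7 library. The means were 6.34 ± 0.579 CPM in F7 (SD, n = 4) and 3.09 ± 1.56 CPM in control (SD, n = 5), for a fitted log2 fold change of 1.08 (SE 0.30; adjusted p = 0.0136 in edgeR). With F7 replicates 3 and 4 as the only F7 libraries it was 0.95 and no longer called (adjusted p = 0.161 in edgeR).

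Per length, the balance between the cyclooxygenases was opposite in the groups. Ptgs2 made up 87.6%, 86.2%, 71.8% and 76.4% of the summed CPM per kb of exon of Ptgs1 and Ptgs2 in F7 replicates 1 to 4. In control replicates 1 to 5 it made up 4.89%, 7.82%, 2.58%, 0% and 1.33%. Ptgs2 was thus the more abundant cyclooxygenase transcript in each of the 4 F7 libraries and Ptgs1 in each of the 5 control libraries. In F7 the ratio of Ptgs2 to Ptgs1, per kb, was 7.06 and 6.24 in replicates 1 and 2 and 2.54 and 3.24 in replicates 3 and 4. Since Ptgs2 was chosen for its level here, this share is a description.

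**Figure D2:**
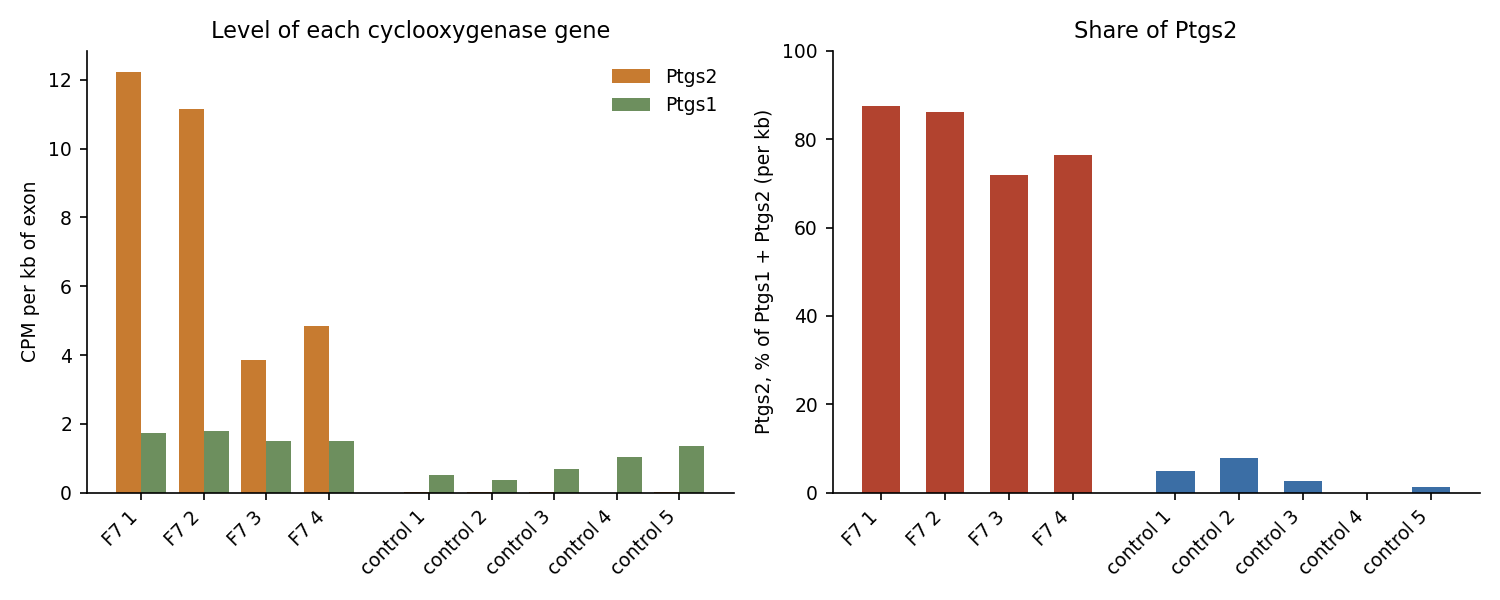
Left, CPM per kb of exon of Ptgs2 and Ptgs1 in each library, and right, Ptgs2 as a percentage of their sum, with F7 libraries (red) left of control libraries (blue). The Ptgs2 share is 71.8% or more in F7 and 7.82% or less in control, and the Ptgs1 bars of F7 lie above those of every control library.

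The terminal synthases moved little. Ptges3, also known as the HSP90 cochaperone p23, was the most abundant of the set, at 129.7, 111, 96.5 and 108 CPM in F7, against 88.2, 81.9, 91.7, 99.6 and 107 CPM in control. The groups overlapped, since F7 replicate 3 lay below control replicates 4 and 5. The means were 111 ± 13.8 CPM in F7 (SD, n = 4) and 93.8 ± 9.95 CPM in control (SD, n = 5), and the gene passed the threshold narrowly, with a log2 fold change of 0.25 (SE 0.09; adjusted p = 0.0468 in edgeR). The call was lost on leaving out any of F7 replicates 1, 2 and 4 or control replicates 1, 2, 3 and 4, with log2 fold changes between 0.17 and 0.27, and when replicates 3 and 4 stood alone for F7 (0.13, adjusted p = 0.425 in edgeR). A processed pseudogene of Ptges3 is annotated, and how reads that match both were counted is not given in the sources used here.

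Ptges2, the membrane-associated synthase also called mPGES-2, was at 12.7, 13.3, 14.5 and 14.4 CPM in F7, against 11.6, 13.9, 17.2, 13.7 and 14.5 CPM in control. All F7 libraries lay within the range of the controls. Its log2 fold change was -0.05 (SE 0.12; adjusted p = 0.738 in edgeR). Ptges, which encodes the inducible synthase mPGES-1 that is often induced together with Ptgs2, was close to the limit of detection, with 6, 2, 4 and 5 counts in F7, against 12, 12, 6, 6 and 6 in control. Its means were 0.512 ± 0.265 CPM in F7 (SD, n = 4) and 0.635 ± 0.169 CPM in control (SD, n = 5), and the exact two-sided permutation test gave p = 0.4286. No rise of Ptges beside the high Ptgs2 of F7 was detectable at this depth. With no filter its log2 fold change was -0.47 (SE 0.49; adjusted p = 0.518 in edgeR).

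Among the receptors, the EP1 gene fell and the EP4 gene did not pass the test. Ptger1, which encodes EP1, a receptor that raises intracellular calcium, was at 33.5, 33.4, 31.8 and 31.2 CPM in F7, against 54.0, 51.1, 43.2, 43.2 and 39.6 CPM in control. The groups did not overlap, and the F7 libraries were tightly grouped. The means were 32.5 ± 1.17 CPM in F7 (SD, n = 4) and 46.2 ± 6.05 CPM in control (SD, n = 5), for a fitted log2 fold change of -0.51 (SE 0.09; adjusted p = 0.00112 in edgeR), and it was called in all 19 alternative fits.

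Ptger1 lies on chromosome 8 (83666678 to 83672753, plus strand). Whether counting used strand is not given in the sources used here, so reads from either strand of its exons cannot be told apart, and its level and its fall are uncertain to that extent. The chromosome as a whole was shifted. The 731 other tested genes of chromosome 8 had a median log2 fold change of -0.35, and of the 35 tested genes within 1 Mb of Ptger1 3 were called higher and 15 lower, with a median of -0.26. The part of the strand setting and of the chromosome in the fall of Ptger1 was not tested.

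Ptger4, which encodes EP4, a receptor that raises cyclic AMP, was at 24.9, 24.6, 18.3 and 19.6 CPM in F7, against 17.9, 22.8, 21.6, 18.8 and 18.4 CPM in control. F7 replicates 1 and 2 lay above all controls and replicates 3 and 4 within their range. As in Ptgs2, replicates 3 and 4 were the lower F7 pair, but in Ptgs2 both pairs lay above the controls. The log2 fold change was 0.16 (SE 0.11; adjusted p = 0.296 in edgeR) over all libraries, 0.32 (adjusted p = 0.06 in edgeR) from the F7 pair 1 and 2 and -0.06 (adjusted p = 0.78 in edgeR) from the pair 3 and 4. The pseudogene Gm15937 covers 15.3% of the Ptger4 exon bases and had 3 reads in F7 and 7 in control. Ptger2, the gene of the other receptor that raises cyclic AMP, EP2, had 1 read in F7 and 1 read in control. Hpgd, the prostaglandin dehydrogenase gene, had 0 reads in all 9 libraries. A count of 0 allows up to 3 reads over a group, which corresponds to 0.0793 CPM in F7 and 0.0463 CPM in control. Neither gene can be compared at this depth.

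**Figure D3:**
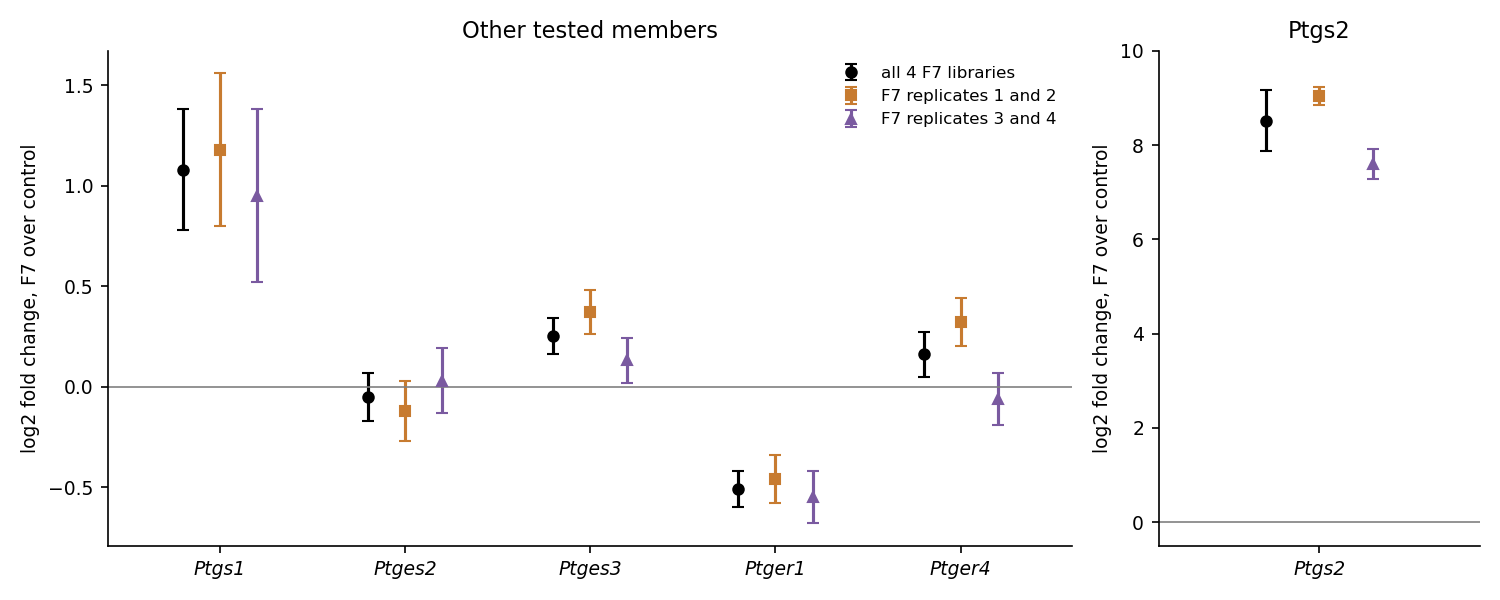
Fitted log2 fold change of F7 over control with its SE for the tested genes, from all 4 F7 libraries (black), replicates 1 and 2 (orange) or replicates 3 and 4 (purple), each against 5 control libraries, with Ptgs2 on an axis of its own. Ptger1 is below 0 in each fit, Ptgs1 above 0, Ptger4 is 0.32 with replicates 1 and 2 and -0.06 with replicates 3 and 4, and Ptgs2 is 9.04 and 7.59. The SE bars of Ptgs2 with an F7 pair alone understate the counting error of its few control reads.

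The order of levels, as mean CPM per kb of exon, changed mainly through Ptgs2. In F7 it ran Ptges3 (50.2), Ptgs2 (8.02), Ptger1 (5.95), Ptger4 (3.29), Ptges2 (2.71), Ptgs1 (1.63), Ptges (0.130) and Pla2g4a (0.0337), with Ptger2 and Hpgd at the end. The F7 ranges of Ptgs2 and Ptger1 overlapped, because F7 replicates 3 and 4 had more Ptger1 than Ptgs2 per kb. In control the order was Ptges3 (42.3), Ptger1 (8.46), Ptger4 (2.99), Ptges2 (2.80), Ptgs1 (0.795), Ptges (0.161), Pla2g4a (0.138) and Ptgs2 (0.0190), again followed by Ptger2 and Hpgd. Ptger4 and Ptges2 overlapped in both groups, as did Ptges and Pla2g4a, and Pla2g4a and Ptgs2 overlapped in control. The Ptger1 level carries the doubt about strand.

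In the authors' deposited table, whose fit used 1 further F7 library, the log2 fold change was 8.50 for Ptgs2, 0.99 for Ptgs1, 0.27 for Ptges3 and -0.50 for Ptger1. In that table of the authors Ptges2 was at -0.05, Ptger4 at 0.12, Ptges at -0.52 and Pla2g4a at -1.91.

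None of the tested neighbours of Ptgs2 was called. Within 1 Mb of its start the annotation has 30 other genes, of which 27 are in the count table, 14 had a read and 3 were tested. By edgeR 0 of the 3 were called, none had an unadjusted p under 0.05, and DESeq2 called 0 as well. Tpr, a nuclear pore gene, was at 351 ± 1.54 CPM in F7 (SD, n = 4) and 328 ± 25.6 CPM in control (SD, n = 5), for a fitted log2 fold change of 0.10 (SE 0.07; adjusted p = 0.271 in edgeR). Prg4, the lubricin gene, had a log2 fold change of -0.88 (SE 0.50; adjusted p = 0.185 in edgeR) on 27 reads in F7 and 84 in control. The pseudogene Ska2l-ps had one of 0.03 (SE 0.19; adjusted p = 0.924 in edgeR). The antisense gene Ptgs2os, which starts 68 bases upstream of Ptgs2, had 4 reads in F7 and 1 in control, and Ptgs2os2 had 8 reads in F7 and 3 in control.

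**Figure D4:**
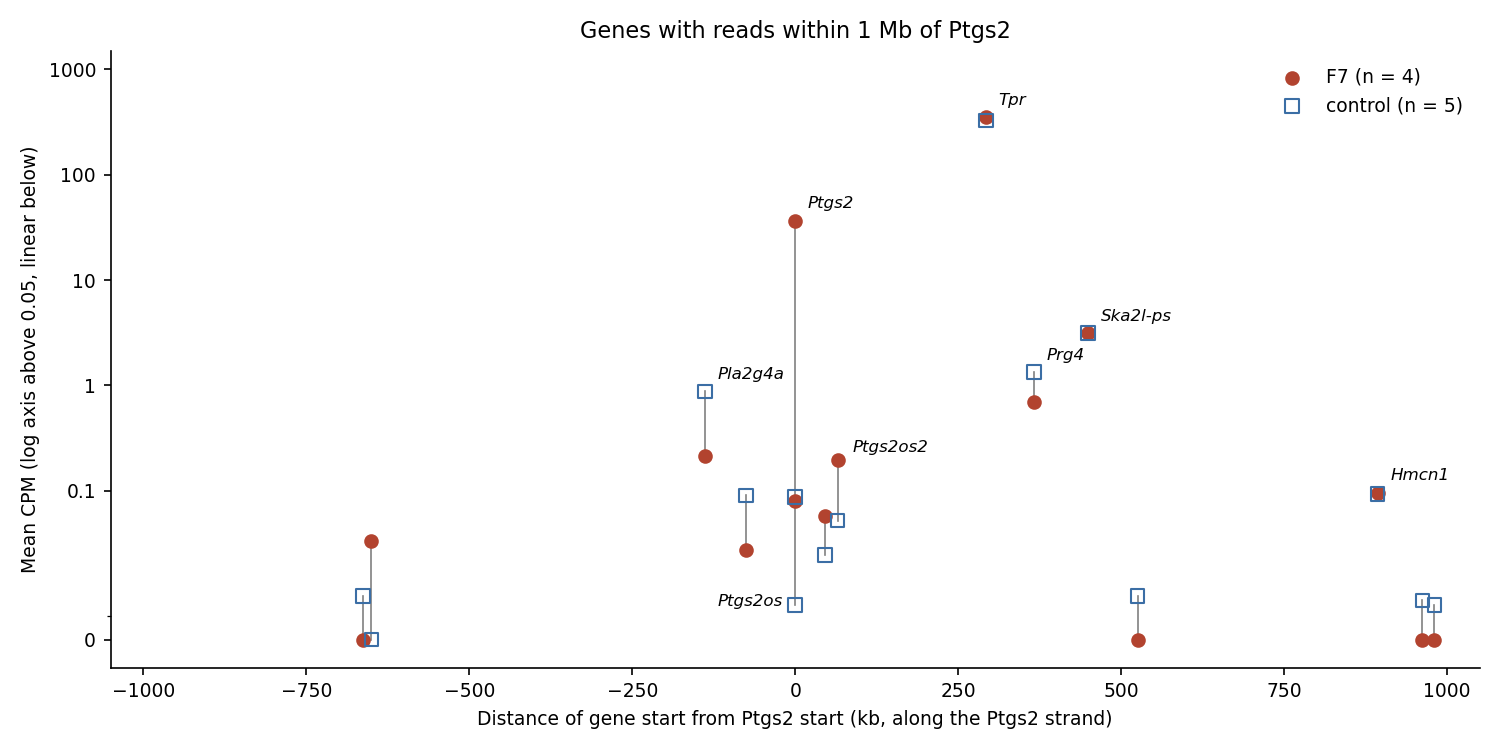
Mean CPM of each gene with a read within 1 Mb of the Ptgs2 start, against its distance in kb along the Ptgs2 strand, with filled circles for F7 (n = 4), open squares for control (n = 5) and a line joining them. The vertical axis is logarithmic above 0.05 and linear below. Ptgs2 is at 36.7 CPM in F7 and 0.0872 CPM in control, whereas the 3 tested neighbours Tpr, Prg4 and Ska2l-ps were not called.

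The 6 tested genes whose profile over the 9 libraries was most like that of Ptgs2 were Nfia, Ptp4a3, Xdh, Sash1, Vegfc and Megf10. Likeness was the root mean square difference of log2 CPM after centring each gene, and it ran from 0.90 for Nfia to 1.44 for Megf10. Likeness to Ptgs2 chose these genes, so high levels in all F7 libraries and levels near 0 in control follow from the choice. Like Ptgs2, they passed the low-count filter through their F7 counts. Reads in F7 and in control were 1884 and 22 for Nfia, 241 and 0 for Ptp4a3, and 119 and 0 for Xdh. They were 432 and 2 for Sash1, 114 and 0 for Vegfc, and 227 and 5 for Megf10. The division within F7 differed. Vegfc, a lymphatic growth factor gene, and Xdh had a mean CPM in F7 replicates 3 and 4 that was 0.752 and 0.879 of that in replicates 1 and 2, whereas that ratio was above 1 for Nfia (1.21), Ptp4a3 (1.07), Sash1 (1.24) and Megf10 (1.40).

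Around the 10 genes, 144 further genes of the pathway were listed in 9 groups, and 85 could be tested. Of these 23 rose, 26 fell and 36 did not pass, with a median log2 fold change of -0.08. Among all 14730 genes 2561 (17.4%) were higher and 2635 (17.9%) lower, and each list count below stands beside those shares. With the F7 pair 1 and 2 alone 2022 of 15551 genes were higher and 2127 lower. With the pair 3 and 4 alone 988 of 15430 were higher and 1172 lower. Counts over lists this small read little against that background.

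Upstream of the cyclooxygenases, 4 of 10 tested genes of lipid release rose and 2 fell, and with replicates 3 and 4 alone for F7 3 rose and 1 fell. Pla2g5, a secreted phospholipase A2, fell to between 0.0857 and 0.805 CPM in F7, against 1.63 to 4.40 CPM in control, a log2 fold change of -2.67 (SE 0.48; adjusted p = 0.00102 in edgeR) that was -2.68 with the F7 pair 1 and 2 and -2.64 with the pair 3 and 4. Faah, which breaks down the arachidonate amide anandamide, rose to between 4.54 and 6.05 CPM in F7, against 1.67 to 2.99 CPM in control (log2 fold change 1.19, adjusted p = 0.000399 in edgeR), with 1.17 from the pair 1 and 2 and 1.25 from the pair 3 and 4. Parallel to the prostaglandin E synthases, 2 of 3 tested synthases and reductases rose and none fell. The number that rose was 1 without control replicate 1 or 2 or F7 replicate 1, 2 or 3, 1 with replicates 3 and 4 alone for F7, 1 with the replicate block and 3 without F7 replicate 4, and 1 fell without control replicates 3 and 5 and with no filter. Cbr1, a carbonyl reductase that can convert prostaglandin E2 to F2 alpha, rose by 0.36 (SE 0.08; adjusted p = 0.00406 in edgeR) on the log2 scale and was called in all 19 alternative fits, at 0.35 with the pair 1 and 2 and 0.39 with the pair 3 and 4. The untested ones were Ptgis with 31 reads in F7 and 41 in control, Ptgds with 2 and 25, Tbxas1 with 8 and 50, Akr1c18 with 37 and 0, and Fam213b, which was at 0.

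Of the 6 other prostanoid receptors 1 could be tested, and it rose. Ptgir, the prostacyclin receptor gene, was at 2.41, 2.14, 1.34 and 1.99 CPM in F7, against 0.724, 0.593, 0.913, 1.02 and 1.10 CPM in control. Its groups did not overlap, and the log2 fold change was 1.24 (SE 0.27; adjusted p = 0.00355 in edgeR), 1.41 with the pair 1 and 2, and not called with the pair 3 and 4 (0.96, adjusted p = 0.142 in edgeR). Ptger3 and Ptgfr had no read, Ptgdr had 1 read in F7 and 0 in control, Ptgdr2 had 4 and 25, and Tbxa2r had 3 and 7. Of 5 tested genes of transport and breakdown, 1 rose and 3 fell. Ptgr2, a reductase of the products of Hpgd, fell to between 18.4 and 23.5 CPM in F7, against a mean of 32.5 ± 1.78 CPM in control (SD, n = 5; log2 fold change -0.67, SE 0.09; adjusted p = 8.85e-05 in edgeR), with -0.80 from the pair 1 and 2 and -0.50 from the pair 3 and 4. Slco2a1, the prostaglandin uptake transporter, was the gene that rose, at 61.3, 65.7, 43.5 and 37.6 CPM in F7 and 23.5, 23.6, 40.2, 26.8 and 43.5 CPM in control, with overlapping groups (log2 fold change 0.75, adjusted p = 0.0375 in edgeR). It was called in 12 of 19 alternative fits, and the call was lost without control replicate 1, 2 or 4, without F7 replicate 1 or 2, with no filter, and with the pair 3 and 4 alone (0.37, adjusted p = 0.377 in edgeR), whereas the pair 1 and 2 gave 1.02.

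In the leukotriene branch, which shares arachidonate with the cyclooxygenases, 3 of 16 genes were tested, of which 1 rose and 1 fell. Cysltr1, a cysteinyl leukotriene receptor gene, was at 0.0732, 0.0857, 0.504 and 0.459 CPM in F7, against 35.4, 35.0, 27.6, 35.9 and 34.9 CPM in control. With 8 reads in F7 and 2193 in control, its log2 fold change was -7.24 (adjusted p = 5.41e-10 in edgeR), and -8.57 with the pair 1 and 2 and -6.10 with the pair 3 and 4. The SE of 0.25 over all libraries understates the counting error of the 8 F7 reads. Mgst2, which can make leukotriene C4, passed narrowly at 1.15 (adjusted p = 0.0483 in edgeR) and was called in 9 of 19 alternative fits, with neither the pair 1 and 2 (0.78) nor the pair 3 and 4 (1.56) alone, and not without control replicate 1, 2, 3 or 5 or F7 replicate 1, 3 or 4.

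All 30 factors known to act on Ptgs2 transcription or mRNA stability were tested, and 3 rose and 10 fell. Over all tested genes 17.4% were called higher and 17.9% lower. With the F7 pair 1 and 2 alone 5 rose and 8 fell, and with the pair 3 and 4 alone 1 rose and 9 fell. The NF-kB genes Nfkb1 (0.12), Nfkb2 (-0.14), Rela (0.04) and Relb (-0.05) had small log2 fold changes that did not pass. Cebpa fell by 1.26 on the log2 scale (SE 0.32; adjusted p = 0.00851 in edgeR), at -1.48 with the pair 1 and 2 and -0.97, no longer called, with the pair 3 and 4 (adjusted p = 0.169 in edgeR), whereas Cebpb (-0.19) and Cebpd (0.25) did not pass. Fos was at 85.2, 84.7, 18.7 and 10.7 CPM in F7, against 298, 413, 152, 369 and 290.4 CPM in control, a log2 fold change of -2.55 (adjusted p = 0.0191 in edgeR) that was -1.83 with the pair 1 and 2 and -4.38 with the pair 3 and 4. Zfp36, the gene of tristetraprolin, which destabilises Ptgs2 mRNA, was at 59.6, 61.6, 16.1 and 14.5 CPM in F7, against 148, 209.5, 71.0, 161 and 119.9 CPM in control. Its log2 fold change was -1.83 (SE 0.53; adjusted p = 0.0314 in edgeR), called in 13 of 19 alternative fits, and was -1.22 with the pair 1 and 2 and -3.21 with the pair 3 and 4. The call was lost without control replicate 1, 2 or 4, without F7 replicate 3 or 4, and with no filter. In both genes, as in Ptgs2, F7 replicates 3 and 4 lay below replicates 1 and 2.

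Of 22 inflammatory genes often induced with Ptgs2, 10 were tested, and 4 rose and none fell (17.4% and 17.9% over all tested genes). The count turned on the F7 libraries used. With the pair 1 and 2 alone 8 rose and 0 fell, and with the pair 3 and 4 alone 1 rose and 2 fell. Over all genes the pair 1 and 2 called 2022 higher and 2127 lower, and the pair 3 and 4 called 988 and 1172. Without F7 replicate 3, and also without control replicates 3 and 5, 7 of the inflammatory genes rose. Over all genes the fit without F7 replicate 3 called 2263 of 15093 higher and 2365 lower. The fit without control replicates 3 and 5 called 3309 of 14919 higher and 3524 lower. Ccl2, a monocyte chemokine gene, was at 36.1, 29.3, 19.0 and 20.3 CPM in F7, against 7.30, 8.89, 12.4, 8.82 and 11.0 CPM in control (log2 fold change 1.48, adjusted p = 0.000214 in edgeR), with 1.78 from the pair 1 and 2 and 1.04 from the pair 3 and 4. Has2, a hyaluronan synthase gene, rose by 1.38 (adjusted p = 0.00471 in edgeR) and Areg, the amphiregulin gene, by 1.98 (adjusted p = 0.0118 in edgeR), both on the log2 scale. The pair 1 and 2 gave 1.74 for Has2 and 2.44 for Areg, and the pair 3 and 4 gave 0.76 and 0.94, neither of which was called. Areg was not called without F7 replicate 1 either. The cytokine genes Il1b, with 0 reads in F7 and 2 in control, Il6, with 3 and 3, and Tnf, at 0, were not tested. Leukocyte markers summed to between 19.5 and 25.1 CPM in F7 and 14.1 and 31.9 CPM in control. Of these 9 markers 8 had a read, with Tyrobp at 0 in every library. Most of both sums came from Cd14, with 586 reads in F7 and 1135 in control, Csf1r, with 125 and 238, and Cd68, with 113 and 151. Their log2 fold changes of -0.2 for Cd14, -0.16 for Csf1r and 0.25 for Cd68 did not pass. Ptprc had 0 reads in F7 and 4 in control, and Adgre1 had 0 in F7 and 1 in control. Renal epithelium and macula densa markers summed to between 262 and 325 CPM in F7 and 598 and 728 CPM in control, with reads for 7 of 10 and Epcam, Ret and Umod at 0. Lrp2, at 223 CPM on average in F7 and 485 CPM in control, and Cdh16, at 36.3 CPM in F7 and 162 CPM in control, made up most of both sums. Nos1, which marks the macula densa, went the other way on few reads, 34 in F7 and 5 in control, and Cdh1 averaged 1.95 CPM in F7 and 1.48 CPM in control. Stromal markers summed to between 206 and 221 CPM in F7 and 169 and 200.4 CPM in control, with reads for all 8. Of these Pdgfrb was called higher (1.24) and Tbx18 lower (-0.41), and Foxd1 (-0.22), Col1a1 (-0.06) and Col3a1 (0.24) did not pass. Endothelial markers summed to between 2.93 and 6.05 CPM in F7 and 2.19 and 3.98 CPM in control, with reads for 7 of 8 and Tie1 at 0. The part of these marker levels in the results was not tested. In these bulk libraries, fewer cells with a transcript and less of it per cell cannot be told apart.

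Downstream, 12 of 15 genes that respond to cyclic AMP were tested, and 3 rose and 7 fell (17.4% and 17.9% over all tested genes). With the F7 pair 1 and 2 alone 2 rose and 5 fell, and with the pair 3 and 4 alone 2 rose and 4 fell. Over all libraries the median was -0.81 on the log2 scale. Areg stands in this list as well and is among those that rose. The immediate early genes Fosb and Nr4a1 fell by 3.67 (adjusted p = 0.00663 in edgeR) and 2.78 (adjusted p = 0.0132 in edgeR) on the log2 scale, Nr4a2 by 1.37 (adjusted p = 0.0012 in edgeR) and Ppargc1a by 1.70 (adjusted p = 1.15e-05 in edgeR). Fosb was at -3.28 with the pair 1 and 2 and -4.53, not called, with the pair 3 and 4 (adjusted p = 0.06 in edgeR). Nr4a1 was at -2.25, not called, with the pair 1 and 2 (adjusted p = 0.0558 in edgeR) and -4.23 with the pair 3 and 4. The pair 1 and 2 gave -1.22 for Nr4a2 and -1.87 for Ppargc1a, and the pair 3 and 4 gave -1.60 for Nr4a2 and -1.48 for Ppargc1a. Pde4b, a cyclic AMP phosphodiesterase gene, went the other way, at 9.22, 8.57, 9.24 and 8.87 CPM in F7, against 1.75, 2.44, 1.91, 1.58 and 2.19 CPM in control (log2 fold change 2.18, SE 0.16; adjusted p = 3.33e-07 in edgeR), with 2.17 from the pair 1 and 2 and 2.20 from the pair 3 and 4. Of 13 tested partners of EP2 and EP4, 5 rose and 4 fell, beside the same shares over all tested genes. The number that fell was 2 without control replicate 1, 2 or 4 or F7 replicate 1 or 4, 3 with the F7 pair 1 and 2 alone and 1 with the pair 3 and 4 alone. Gnas, which encodes the stimulatory G protein subunit, rose by 0.72 (SE 0.07; adjusted p = 3.03e-06 in edgeR), at 59.2 to 62.0 CPM in F7 and 33.6 to 40.0 CPM in control, with 0.72 from the pair 1 and 2 and 0.73 from the pair 3 and 4.

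**Figure D5:**
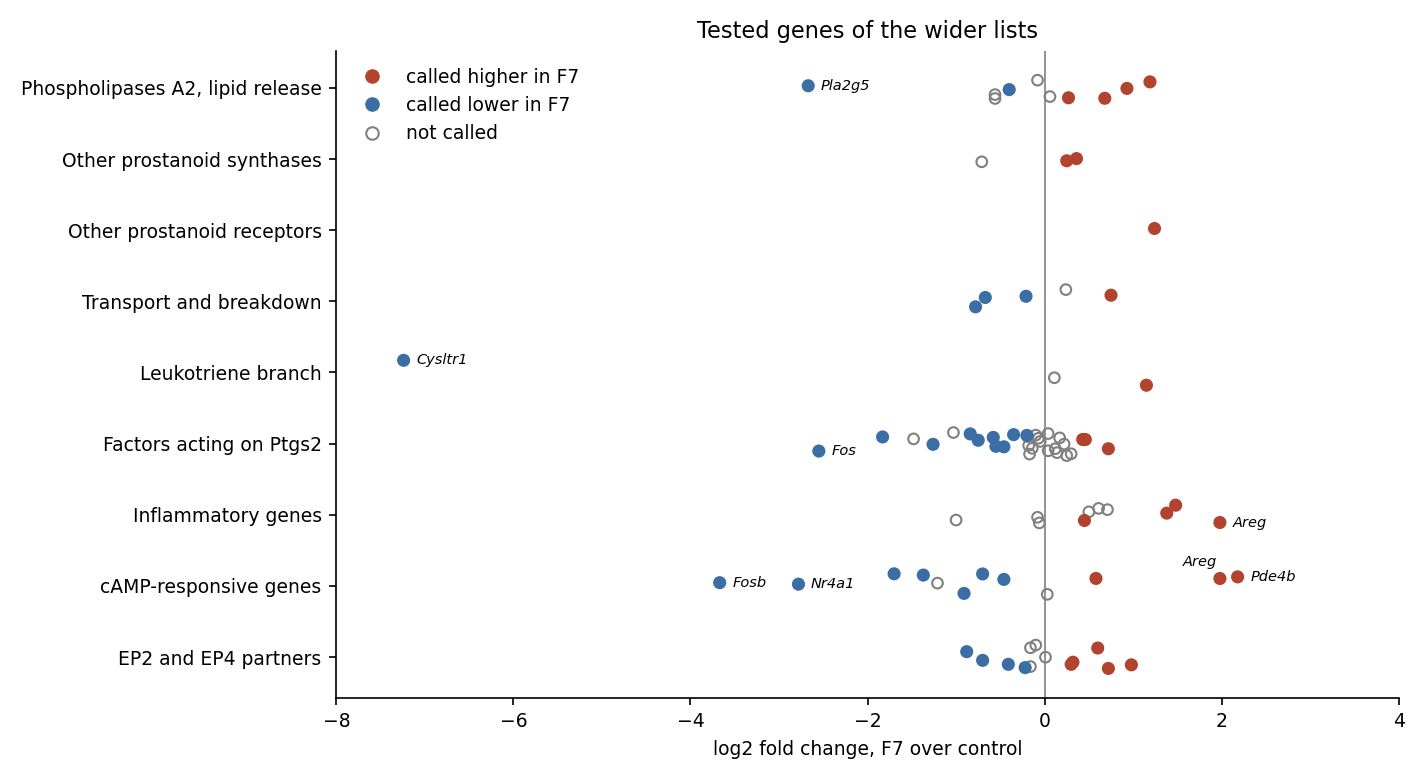
Log2 fold change of F7 over control for each tested gene of the 9 wider lists, 1 dot a gene, spread vertically only to keep dots apart (red, called higher, blue, called lower, open grey, not called). Dots beyond 1.9 in size are named. Cysltr1 lies apart at -7.24. The inflammatory list shows 4 genes called higher and none lower with all libraries. The pair 3 and 4 alone, which called fewer genes over the whole series, gave 1 higher and 2 lower.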

How the data were processed

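RNA was sequenced from 4 F7 and 5 control libraries. Per the submitters' processing notes, mm10, featureCounts and DESeq2 1.18.1 in R 3.4.3 were used, with the aligner, annotation and strand setting not given in the sources used here. Raw counts per gene, as deposited, entered every test. The authors' normalized signal (counts divided by a size factor) served only to check them. The authors' deposited comparison gives log2 fold changes, a test score and p-values, and only its log2 values are quoted. Each per-library table had 1 further F7 column that matched no sample and was not used.

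Counts were fitted in edgeR 4.0.16 (R 4.3.3; quasi-likelihood, robust, TMM, group only) after filterByExpr (minimum count 10, minimum total 15), which left 14730 genes. The p-values were adjusted over these by Benjamini-Hochberg, with calls under 0.05. SE is the size of the log2 fold change over the square root of F. It can be too small where a group has few reads, as for Cysltr1 and for Ptgs2 with an F7 pair alone. The fit was tested on simulated data. Exon lengths and positions came from GENCODE M21. Ptges and Pla2g4a, removed by the filter, were compared by exact permutation, chosen after seeing this. Alternatives tried were no filter, RLE or upper-quartile factors, at least 1 CPM in at least 4 libraries, DESeq2 1.42.0, limma 3.58.1 voom, a replicate block, subsets of libraries and an adjusted p under 0.01.

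The members and lists were chosen with earlier results of these data known. From the wider lists, called genes whose log2 fold change reached 1 in size were named, or, where a list had none, its called gene with the smallest adjusted p. Also named were all tested genes within 1 Mb of Ptgs2 and the 6 most like it (prior count 0.5). Slco2a1, the NF-kB and C/EBP genes, Il1b, Il6, Tnf and the untested synthases and receptors were named after their values were seen.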

Additional observations from a re-analysis of the deposited data

How the results depend on the processing

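Ptger1 kept its direction and call in all 19 alternative fits (-0.61 to -0.45), Ptgs1 kept its call in 18, and Ptgs2 ran from 7.59 to 9.04. Leaving out single libraries, 1 to 2 of the 9 other genes were called higher, Ptges3 ran from 0.17 to 0.32, Ptges2 from -0.13 to 0.02 and Ska2l-ps from -0.05 to 0.11. With F7 replicates 3 and 4 as the only F7 libraries, 0 of the 9 were called higher, 13 of the wider lists were higher (23 with all libraries), and the log2 fold changes were 0.95 for Ptgs1, 7.59 for Ptgs2, 0.03 for Ptges2, 0.13 for Ptges3, -0.06 for Ptger4 and -0.11 for Ska2l-ps. That fit called 988 genes higher and 1172 lower, against 2561 and 2635 with all libraries, from fewer F7 libraries of lower depth. Without control replicates 3 and 5, Ptges2 was at 0.06. At an adjusted p under 0.01, 0 of the 5 tested among the 9 were higher, and 15 of the wider lists were lower (26 at 0.05). The share of all tested genes called at 0.01 is not given here, so these counts have no background to stand beside. The cause of the sign changes was not tested.

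Deviations of same-numbered control and F7 libraries from their group means correlated at -0.0522, 0.0629, 0.190 and -0.0434. These values were not set against those of differently numbered libraries, so they cannot show whether equal numbers mark a pairing. With the replicate block, 2510 genes were higher and 2639 lower, Ptgs1 was at 1.42, Ptges3 at 0.30 and Ptger1 at -0.56, and 2 of the 9 were higher and 1 lower. Depth limits Pla2g4a, Ptges, Ptger2 and Hpgd, and the controls' reads of Ptgs2.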

Other observations

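Akr1c18, which encodes an enzyme that reduces progesterone and prostaglandins, was singled out after its values were seen. It had 16, 14, 5 and 2 counts in F7, against 0 in each of the 5 control libraries, and was not tested because too few libraries reached the minimum count. Its scaled pooled reads were at least 21.1-fold higher in F7, with 3 counts over the control group as the floor. Within F7, replicates 1 and 2 were at 1.17 and 1.20 CPM and replicates 3 and 4 at 0.840 and 0.306 CPM.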
